A study of Mus musculus with 4 samples.

Results

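The guanylate-binding proteins described here are Gbp2, Gbp3, Gbp4, Gbp5, Gbp6, Gbp7, Gbp8 and Gbp9, taken by gene symbol from the feature table and making 8 of its 31053 genes. They were measured in single cells of mouse small-intestinal crypts on day 7 after a marrow transplant that followed lethal irradiation. The allogeneic recipients were C57BL/6 mice given BALB/c marrow, and the syngeneic recipients were C57BL/6 mice given C57BL/6 marrow, labelled as the control. The mice were female and 8 to 12 weeks old, and each group had 2 libraries, made from pools of 3 to 4 mice (n = 2 pools per group throughout). All 4 library names carry the letters KO, with no explanation in the labels. The series title names graft-versus-host disease, in which immune cells of the donor attack the recipient.

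Guanylate-binding proteins are large GTPases of the dynamin superfamily that interferon gamma induces, in part through the transcription factor IRF1. They assemble on the membranes of vacuoles that hold parasites or bacteria and on bacteria in the cytosol, and in mouse cells they promote caspase-11 and inflammasome activation. In the gut epithelium interferon gamma comes mainly from T cells and other lymphocytes, which makes these genes a common readout of its action there.

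The 8 genes lie in 2 clusters of the mouse genome (GRCm38, positions from GENCODE M21). On the plus strand of chromosome 3 lie Gbp5 (ENSMUSG00000105504, 142493978 to 142522344), Gbp7 (ENSMUSG00000040253, 142530342 to 142550149), Gbp3 (ENSMUSG00000028268, 142560026 to 142573209) and Gbp2 (ENSMUSG00000028270, 142620602 to 142638008). On the minus strand of chromosome 5 lie Gbp8 (ENSMUSG00000034438, 105014150 to 105139540), Gbp9 (ENSMUSG00000029298, 105077630 to 105139539), Gbp4 (ENSMUSG00000079363, 105115767 to 105139586) and Gbp6 (ENSMUSG00000104713, 105270702 to 105293698). The annotated spans of Gbp4, Gbp8 and Gbp9 overlap on the same strand, by 23774 bases between Gbp4 and Gbp8 and by 61910 bases between Gbp8 and Gbp9. Libraries of this kind count the 3′ ends of transcripts, and of the 50-base windows in the last 500 bases of Gbp6, 77.8% occur in another gene too (Gm43302, Gbp10 or Gbp9). The corresponding share was 6.43% for Gbp4, 5.99% for Gbp5 and 0 for Gbp2, Gbp3, Gbp7, Gbp8 and Gbp9. Counts of Gbp6 are therefore less certain than those of the other members. Whether the overlap of their spans affects the counts of Gbp4, Gbp8 and Gbp9 was not tested.

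Promoters are shown for the 4 chromosome 3 genes, the only members with promoter sequence in the reference used. These 4 were also the genes called in epithelium as a whole, so there was no uncalled member to compare. RefSeq promoter sequence (GRCm38.p6) was matched for 4 of the 8 genes, Gbp2, Gbp3, Gbp5 and Gbp7; Gbp4, Gbp6, Gbp8 and Gbp9 are named only. The core of the interferon-stimulated response element, GAAA followed after any 2 bases by another GAAA, on either strand, occurred in the 250 bases upstream of the start in all 4, against 978 of 32851 promoters (2.98%). Each sequence is given 5′ to 3′ on the plus strand, with the capitals marking the match, which reads on the opposite strand.
Gbp5, chr3:142496759-142496788: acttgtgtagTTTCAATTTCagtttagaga
Gbp7, chr3:142530258-142530317: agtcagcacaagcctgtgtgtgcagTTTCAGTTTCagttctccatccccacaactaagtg
Gbp3, chr3:142559980-142560025: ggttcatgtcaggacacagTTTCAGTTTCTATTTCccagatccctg
Gbp2, chr3:142620594-142620623: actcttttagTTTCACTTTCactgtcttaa
The matches lie 165 bases from the RefSeq start in Gbp5, 53 in Gbp7, 59 in Gbp2 and 39 and 45 in Gbp3, where 2 matches overlap. A second interferon motif, the gamma-activated sequence TTCNNNGAA, occurred in Gbp5 and Gbp7, with 2 matches each, and in 7.02% of all promoters. By the GENCODE positions above, the matches in Gbp2 and Gbp5 lie inside the annotated gene spans, since the RefSeq starts used here lie downstream of the GENCODE starts. A match describes the letters only.

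The 4 libraries held 3387 and 6341 barcodes in allogeneic recipients and 3580 and 3257 in syngeneic recipients, with total counts of 16755124 and 26677842 UMIs (molecular barcodes that count captured transcripts) against 18262459 and 14961466. Of 16565 barcodes, 12196 were kept, with median counts of 5182 and 3946 UMIs in allogeneic and 4527 and 4201 UMIs in syngeneic cells. Barcodes above the mitochondrial limit of 20% made 27.2% and 11.2% of the allogeneic and 14.6% and 14.9% of the syngeneic libraries, so allogeneic 1 stood apart. Any pair of libraries shared 2 to 7 cell barcodes. Epithelial cells numbered 1806 and 4597 in allogeneic and 2851 and 2422 in syngeneic libraries, and each was put in 1 of 7 classes by its markers, named below with "-like", or in none. T cells numbered 211 and 169 in allogeneic libraries, against 8 and 28 in syngeneic libraries. The labels describe the cells as epithelial, and these barcodes held T cell transcripts instead, such as 354 and 205 UMIs of Cd8a in allogeneic and 6 and 54 in syngeneic libraries. Classes cut from a marker score are ranges: 126 stem-like, 175 cycling progenitor-like, 84 enterocyte-like, 99 goblet-like and 58 Paneth-like cells lay near a cut, and stem-like cells had a median score of 1.07 for stem and 0.16 for cycling markers.

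In epithelial cells as a whole, all 8 genes were higher in both allogeneic pools than in both syngeneic pools, a pattern that 18.2% of all tested genes showed, and 4 passed the test: Gbp2, Gbp3, Gbp5 and Gbp7. Their summed level was 282.5 and 307.2 counts per 1000000 UMIs of the summed cells (CPM) in allogeneic epithelium, against 29.3 and 27.4 CPM in syngeneic epithelium. The means were 295 ± 17.5 and 28.3 ± 1.33 CPM (SD, n = 2 pools each), a ratio of 10.4. Gbp2 was the most abundant member in allogeneic epithelium and Gbp7 in syngeneic epithelium. Calls are at an adjusted p under 0.05 by edgeR's quasi-likelihood test with Benjamini-Hochberg adjustment over all genes tested. Of the 12023 genes tested in epithelium, 17 passed as higher, which is 0.141%, and 2 as lower. Gbp4, Gbp5 and Gbp9 passed the low-count filter on their allogeneic counts alone. For them the higher level and, for Gbp5, the call are descriptions and support nothing beside these shares. The median log2 fold change was 3.58 over the 8 genes and 0.03 over all genes tested. An exact permutation test on the summed level of 2 pools against 2 cannot go below p = 0.333, which is the value it gave.

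Gbp2, a prenylated member that restricts Toxoplasma in mouse cells, had 122.8 and 140.7 CPM in allogeneic and 8.95 and 7.24 CPM in syngeneic epithelium. The means of 132 ± 12.6 and 8.09 ± 1.21 CPM (SD, n = 2 pools each) were far apart, with a log2 fold change of 4.09 (SE 0.32, edgeR adjusted p = 0.0318). Gbp7, known in mouse macrophages for bringing the oxidase machinery to bacteria, had 85.0 and 66.0 CPM in allogeneic and 14.5 and 15.1 CPM in syngeneic epithelium. It was the member with the highest syngeneic level and the smallest fold change on the log2 scale, 2.38 (SE 0.20, edgeR adjusted p = 0.0318). Gbp3, the gene between Gbp7 and Gbp2 in the cluster, had 24.4 and 18.4 CPM in allogeneic and 1.51 and 2.09 CPM in syngeneic epithelium. It rose by 3.60 (SE 0.28, edgeR adjusted p = 0.0318) on the log2 scale. Gbp5, which promotes NLRP3 inflammasome assembly in mouse macrophages, had 12.5 and 12.2 CPM in allogeneic epithelium, against 0.30 CPM in each syngeneic pool. The syngeneic value rests on 5 and 4 UMIs, with a log2 fold change of 5.39 (SE 0.38, edgeR adjusted p = 0.0244).

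The 4 genes of the chromosome 5 cluster were higher in allogeneic pools as well, but none passed the test in epithelium as a whole. Gbp4 had 17.2 and 35.6 CPM in allogeneic and 0.91 and 0.30 CPM in syngeneic epithelium (log2 fold change 5.52, SE 0.71, edgeR adjusted p = 0.0903). The allogeneic pools themselves differed for this gene, with allogeneic 2 above allogeneic 1. Gbp8 had 8.55 and 20.0 CPM in allogeneic and 1.39 and 1.27 CPM in syngeneic epithelium (3.56, SE 0.62, edgeR adjusted p = 0.139). Gbp6, one of the members shown to protect mouse macrophages from bacteria, had 8.62 and 12.7 CPM in allogeneic and 1.27 and 1.04 CPM in syngeneic epithelium (3.29, SE 0.44, edgeR adjusted p = 0.0958). Gbp9 was the least abundant, with 3.46 and 1.77 CPM in allogeneic and 0.42 and 0.07 CPM in syngeneic epithelium (3.28, SE 0.68, edgeR adjusted p = 0.182). The groups did not overlap for any of these 4 genes. With DESeq2 in place of edgeR all 8 genes passed, among 337 of all genes, and with a stricter mitochondrial limit of 10% no gene did, with an adjusted p of 0.0519 for Gbp2, Gbp3 and Gbp5 by edgeR. Without syngeneic 1 or syngeneic 2, 7 of the 8 passed among 99 and 111 of all genes, and without allogeneic 1 or allogeneic 2 all 8 passed among 5770 and 2772, against 19 with all libraries.

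**Figure D1:**
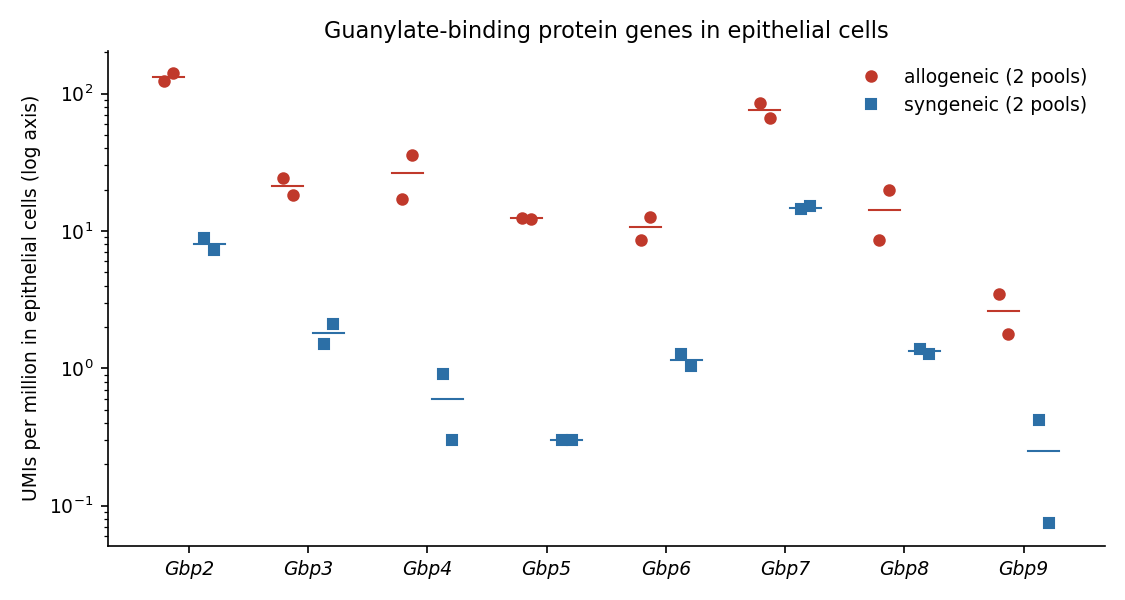
Level of each of the 8 genes in the summed epithelial cells of each library, in CPM on a log axis; points are pools (2 per group) and lines are group means. Both allogeneic points lie above both syngeneic points for every gene, and Gbp7 has the highest syngeneic level.

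Markers of other cell types were also counted in the epithelial sums. The 13 T cell markers together made 3.91 and 2.85 CPM in allogeneic and 2.54 and 1.34 CPM in syngeneic epithelium, with 13 and 11 of the 13 having a count in the allogeneic and 7 and 5 in the syngeneic pools. Cd3d and Cd8a were at 0 in both syngeneic pools. The 12 myeloid markers made 25.3 and 17.7 CPM in allogeneic and 22.9 and 27.1 CPM in syngeneic epithelium, with 9 and 11 having a count in the allogeneic and 7 and 8 in the syngeneic pools; Adgre1 was at 0 in all 4, and Csf1r and C1qa in all but allogeneic 2. Stromal markers gave 63 UMIs (4.64 CPM) in allogeneic 1, against 0 in allogeneic 2 and 1 and 0 UMIs in the syngeneic pools. Their part in the result was not tested. With every epithelial cell left out that held a UMI of a T or myeloid marker, the summed level was 267.1 and 295.8 CPM in allogeneic and 29.1 and 26.7 CPM in syngeneic epithelium. Because the classes are mixed differently in the pools, each pool was also given the same mix of classes, the mean mix over all 4. The sum was then 259.3 and 345.0 CPM against 28.8 and 28.7 CPM.

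Stem-like and cycling progenitor-like cells, defined by genes such as Lgr5 and Olfm4 and by Mki67 and Top2a, held the most calls. In cycling progenitor-like cells (422 and 987 cells in allogeneic, 436 and 364 in syngeneic libraries) 7 of the 8 genes had enough counts to be tested, and 7 rose, beside 1.94% of the 10201 genes tested. Of these genes all but Gbp2 and Gbp7 passed the low-count filter on their allogeneic counts alone and so had to differ. In each class below some genes did so too. The counts of calls, here and in those classes, are descriptions and support nothing, also beside the share of all genes. The cycling cells of the 2 groups lay in different clusters: 49.96% of the allogeneic ones in a cluster led by Cxcl10 and Ly6c1 (cluster 12), and 37.9% of the syngeneic ones in one led by Dmbt1 and Gsdmc2 (cluster 13). The summed level was 378.0 CPM in that allogeneic and 7.19 CPM in that syngeneic set. Levels per cluster, here and below, are over the pools of a group together. Over all classes, clusters 12 and 21 held 202 and 111 cells of allogeneic 1 and 989 and 651 of allogeneic 2. The next largest sets had 440.6 and 303.4 CPM in allogeneic (clusters 21 and 4) and 39.1 and 29.2 CPM in syngeneic cells (clusters 8 and 11). Over the whole class the mean summed levels were 336 and 23.9 CPM, a ratio of 14.1. Gbp2 had 126.2 and 182.9 CPM in allogeneic and 6.64 and 7.70 CPM in syngeneic cycling cells (log2 fold change 4.55, edgeR adjusted p = 7.24e-06). Gbp7 had 79.9 and 85.7 CPM against 12.0 and 13.1 CPM (2.83, edgeR adjusted p = 2.93e-05), and Gbp3 30.6 and 32.4 CPM against 0.66 and 3.08 CPM (4.22, edgeR adjusted p = 9.47e-05). Gbp4, Gbp5, Gbp6 and Gbp8 rose by 5.50, 5.13, 4.29 and 4.06 on the log2 scale in these cells, with edgeR adjusted p of 0.00141, 0.000346, 0.00119 and 0.00332. Gbp4 had 17.6 and 41.9 CPM in allogeneic and 0.66 and 0.77 CPM in syngeneic cells, Gbp6 8.58 and 11.5 CPM against 0.33 and 0.77 CPM, and Gbp8 6.13 and 10.7 CPM against 0.66 and 0.38 CPM. The syngeneic counts of these 4 genes were so low that the ratio is loose, as for Gbp5, with 12.7 and 22.7 CPM in allogeneic and 0.66 and 0.38 CPM in syngeneic cells and a ratio of 35.6 with a 95% counting interval of 12.0 to 174. Gbp9 was not tested, with 1.02 and 1.78 CPM in allogeneic cells and 0 UMIs in syngeneic cells, which is at least 2.80-fold higher against a floor of 3 counts over the group.

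In stem-like cells (281 and 132 cells in allogeneic, 467 and 235 in syngeneic libraries) the summed level was the highest of the 7 classes in the allogeneic group, at 446.4 and 551.1 CPM, against 49.5 and 43.0 CPM in syngeneic cells. Of 7 genes tested 6 rose, beside 0.511% of the 9206 genes tested, with all but Gbp2 and Gbp7 entering the test through their allogeneic counts. Gbp2 had 175.7 and 272.0 CPM in allogeneic and 12.3 and 10.8 CPM in syngeneic stem-like cells (log2 fold change 4.37, SE 0.39, edgeR adjusted p = 0.00163), and Gbp7 151.8 and 113.3 CPM against 22.5 and 22.3 CPM (2.66, edgeR adjusted p = 0.00342). Gbp3 had 40.1 and 40.6 CPM in allogeneic and 3.68 and 5.79 CPM in syngeneic cells (3.24, edgeR adjusted p = 0.0051), and the allogeneic pools nearly coincided. Gbp5 had 22.6 and 37.0 CPM in allogeneic cells and 1 UMI in the syngeneic cells of both pools (6.42, edgeR adjusted p = 0.00613), a ratio of 96.4 whose counting interval starts at 16.8. Gbp4 had 22.6 and 48.9 CPM in allogeneic and 2.86 and 0 CPM in syngeneic cells (4.18, edgeR adjusted p = 0.029), and Gbp6 14.9 and 16.7 CPM against 2.45 and 1.65 CPM (2.87, edgeR adjusted p = 0.0267). Both passed, but Gbp6 lost its call without either syngeneic library (edgeR adjusted p of 0.155 and 0.0656) and Gbp4 with DESeq2 (adjusted p = 0.189). Gbp8 missed the threshold at 11.1 and 21.5 CPM in allogeneic and 2.86 and 0.83 CPM in syngeneic stem-like cells (2.82, edgeR adjusted p = 0.0963), and Gbp9 was not tested, with overlapping groups at 7.67 and 1.19 CPM against 2.86 and 0.83 CPM. The stem-like cells came from different clusters of an unsupervised grouping in the 2 groups: 63.5% of the syngeneic cells lay in a cluster led by Olfm4 (cluster 11), which held 30.02% of the allogeneic ones. Within that cluster the summed level of the stem-like cells was 409.6 CPM in the allogeneic and 46.3 CPM in the syngeneic group. Over all classes the cluster held 237 cells of allogeneic 1 and 21 of allogeneic 2, so the allogeneic value rests largely on allogeneic 1.

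Enterocyte-like cells, the absorptive cells that carry Fabp1, Apoa1 and Alpi, had the smallest difference in the summed level. It was 94.7 and 182.4 CPM in allogeneic enterocyte-like cells (354 and 1719 cells) and 45.3 and 43.6 CPM in syngeneic ones (478 and 499 cells), a ratio of 3.12. Of the 5 genes tested, Gbp4 and Gbp8 rose, beside 1.48% of the 7451 genes tested. Both, and Gbp6, entered the test through their allogeneic counts alone, so these calls are descriptions and support nothing. Gbp8 had 22.5 and 37.8 CPM in allogeneic and 3.45 and 4.41 CPM in syngeneic enterocyte-like cells (log2 fold change 3.23, SE 0.48, edgeR adjusted p = 0.0104), and Gbp4 had 9.12 and 24.1 CPM against 0.49 and 1.10 CPM (4.71, SE 0.79, edgeR adjusted p = 0.0154). The 2 genes that dominated elsewhere did not pass: Gbp2 had 19.6 and 58.1 CPM against 11.3 and 9.92 CPM (2.22, SE 0.55, edgeR adjusted p = 0.0683), and Gbp7 had 35.8 and 45.8 CPM against 23.6 and 24.8 CPM (1.003, SE 0.32, edgeR adjusted p = 0.162). Gbp6 had 6.31 and 12.7 CPM in allogeneic and 5.42 and 3.31 CPM in syngeneic cells (1.48, SE 0.54, edgeR adjusted p = 0.205). Gbp3 gave 1 and 6 UMIs in allogeneic and 1 and 0 UMIs in syngeneic enterocyte-like cells, and Gbp5 gave 0 and 0.77 CPM against 0.49 and 0 CPM. Gbp9 gave 1 and 15 UMIs in allogeneic and 0 in syngeneic cells, at least 2.59-fold higher against the floor over the group. No member was called here at the mitochondrial limit of 10%, and 5 were called without allogeneic 1, where 2738 of all genes were called, against 210. The median mitochondrial share of these cells was 14.6% and 8.2% in allogeneic and 10.8% and 10.6% in syngeneic libraries, and its part in the result was not tested.

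The enterocyte-like cells of the 2 groups were also not the same cells by an unsupervised grouping. Of the 2073 allogeneic cells, 40.8% lay in a cluster led by Pck1, Leap2 and Rbp2 (cluster 20) and 34.4% in one led by Ly6d, Pla2g4c and Slc10a2 (cluster 19). Of the 977 syngeneic cells, 48.6% lay in a cluster led by Plb1 and Lct (cluster 1) and 37.5% in one led by Reg3a and Fabp6 (cluster 0). The summed level was 157.0 and 204.5 CPM in those 2 allogeneic sets and 50.3 and 34.3 CPM in the syngeneic sets. Over all classes, clusters 20 and 19 held 39 and 35 cells of allogeneic 1 and 820 and 944 of allogeneic 2. Cluster 3, with 276 cells of allogeneic 1 and 16 of allogeneic 2, gave 13.7% of the allogeneic enterocyte-like cells, at 106.4 CPM. The values of the 2 largest allogeneic sets thus rest largely on allogeneic 2. Group and kind of enterocyte therefore cannot be told apart in this class, and within the allogeneic group the kinds differed by pool.

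Paneth-like cells, which secrete antimicrobial peptides, had the largest ratio of summed levels among the 7 classes, 20.0. Their summed level was 273.6 and 400.7 CPM in allogeneic (194 and 236 cells) and 18.4 and 15.3 CPM in syngeneic libraries (325 and 298 cells). Of 5 genes tested 5 rose, beside 1.05% of the 8570 genes tested, with all but Gbp7 entering the test through their allogeneic counts. Gbp2 had 137.4 and 201.4 CPM in allogeneic and 7.41 and 2.62 CPM in syngeneic Paneth-like cells (log2 fold change 4.75, edgeR adjusted p = 0.000159), and Gbp7 had 78.9 and 82.6 CPM against 8.37 and 10.8 CPM (2.77, edgeR adjusted p = 0.000446). Gbp3 had 18.4 and 24.6 CPM against 1.29 and 1.12 CPM (3.8, edgeR adjusted p = 0.000831). Gbp4 had 17.8 and 35.5 CPM in allogeneic cells and no UMI in syngeneic ones, which makes it at least 51.0-fold higher (edgeR adjusted p = 0.000424). Gbp5 had 7.23 and 20.5 CPM in allogeneic and 0 and 0.37 CPM in syngeneic cells (5.64, edgeR adjusted p = 0.00606). Gbp6, Gbp8 and Gbp9 were not tested, with 5 to 26 UMIs per allogeneic and 0 to 3 per syngeneic library. Of the syngeneic Paneth-like cells 63.6% lay in an alpha-defensin cluster (cluster 5), and of the allogeneic ones 22.3%, where the summed level was 250.02 CPM in the allogeneic and 16.6 CPM in the syngeneic group.

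In goblet-like cells, which secrete mucus, 1 gene passed. The summed level was 242.9 and 357.5 CPM in allogeneic (200 and 407 cells) and 34.1 and 34.2 CPM in syngeneic libraries (474 and 432 cells), a ratio of 8.79. The cells of the 2 groups lay in part in different clusters: 35.4% of the allogeneic ones in a cluster led by Cxcl9 and Retnlb, with Gbp2 itself among its leading genes (cluster 21), and 37.3% of the syngeneic ones in one led by Creb3l1 and Agr2 (cluster 7). In a shared cluster led by Zg16 (cluster 9), with 18.5% of the allogeneic and 33.8% of the syngeneic cells, the summed level was 291.9 CPM in the allogeneic and 71.2 CPM in the syngeneic group. Gbp2 alone passed among 6 genes tested, beside 0.148% of the 9470 genes, with 108.4 and 201.2 CPM in allogeneic and 11.3 and 12.1 CPM in syngeneic cells (log2 fold change 3.90, edgeR adjusted p = 0.0497). That call was lost with another scaling (RLE, adjusted p = 0.0595). Gbp7, at 66.9 and 65.7 CPM in allogeneic and 19.2 and 16.3 CPM in syngeneic goblet-like cells, was next (2.02, edgeR adjusted p = 0.0579). Gbp4 had 19.2 and 39.8 CPM in allogeneic cells and 1 UMI in the syngeneic group (edgeR adjusted p = 0.0546), and Gbp3 16.1 and 12.0 CPM in allogeneic and 2.18 and 2.92 CPM in syngeneic cells (2.55, edgeR adjusted p = 0.112). Gbp6 and Gbp8 were also higher in both allogeneic pools, at 6.15 and 14.8 CPM against 0.36 and 0.83 CPM and at 6.15 and 17.6 CPM against 0 and 1.67 CPM, and did not pass (edgeR adjusted p of 0.168 and 0.367). Gbp5 and Gbp9 were not tested, with 17 and 7 UMIs and 9 and 7 UMIs in allogeneic libraries, against 2 and 1 UMIs and 0 UMIs in syngeneic libraries. The count of calls was unstable: without syngeneic 1 it was 2, without syngeneic 2 it was 4, without allogeneic 1 it was 6 and without allogeneic 2 it was 5, while calls over all genes went up as well, to 48 to 2808, against 15.

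The 2 rarest classes rest on 29 to 61 cells per library. In enteroendocrine-like cells, the hormone-secreting class, Gbp2 had 152.5 and 152.0 CPM in allogeneic and 18.4 and 0 CPM in syngeneic libraries (log2 fold change 3.54, edgeR adjusted p = 0.0139). Gbp7 had 132.2 and 105.7 CPM against 6.13 and 13.8 CPM (3.69, edgeR adjusted p = 0.0119), so both genes tested passed, beside 0.518% of 2898 genes. Both entered the test through their allogeneic counts alone, so these calls are descriptions and support nothing. Without syngeneic 1 or allogeneic 1, Gbp7 lost its call (edgeR adjusted p of 0.223 and 0.378). In tuft-like cells, a chemosensory class, Gbp2 had 137.0 and 64.6 CPM in allogeneic and 0 and 4.29 CPM in syngeneic libraries, with 1 UMI in the syngeneic group and an edgeR adjusted p of 0.00474. Gbp2 and Gbp7 entered this test through their allogeneic counts alone as well. Gbp7 did not pass there, at 54.1 and 64.6 CPM in allogeneic and 5.85 and 21.5 CPM in syngeneic libraries (2.27, edgeR adjusted p = 0.366), and 0.28% of 3931 genes passed as higher. Without allogeneic 1 no member passed in tuft-like cells. The other 6 genes were too sparse to test in either class, with 0 to 12 UMIs per allogeneic and 0 to 2 per syngeneic library. In these 2 classes most cells of both groups lay in 1 shared cluster: 88.1% of allogeneic and 95.2% of syngeneic enteroendocrine-like cells in cluster 17, and 86.1% and 92.2% of tuft-like cells in cluster 14. Within these clusters the summed level was 379.6 CPM in allogeneic and 34.5 CPM in syngeneic enteroendocrine-like cells and 253.1 and 14.9 CPM in tuft-like cells of the allogeneic and the syngeneic group.

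**Figure D2:**
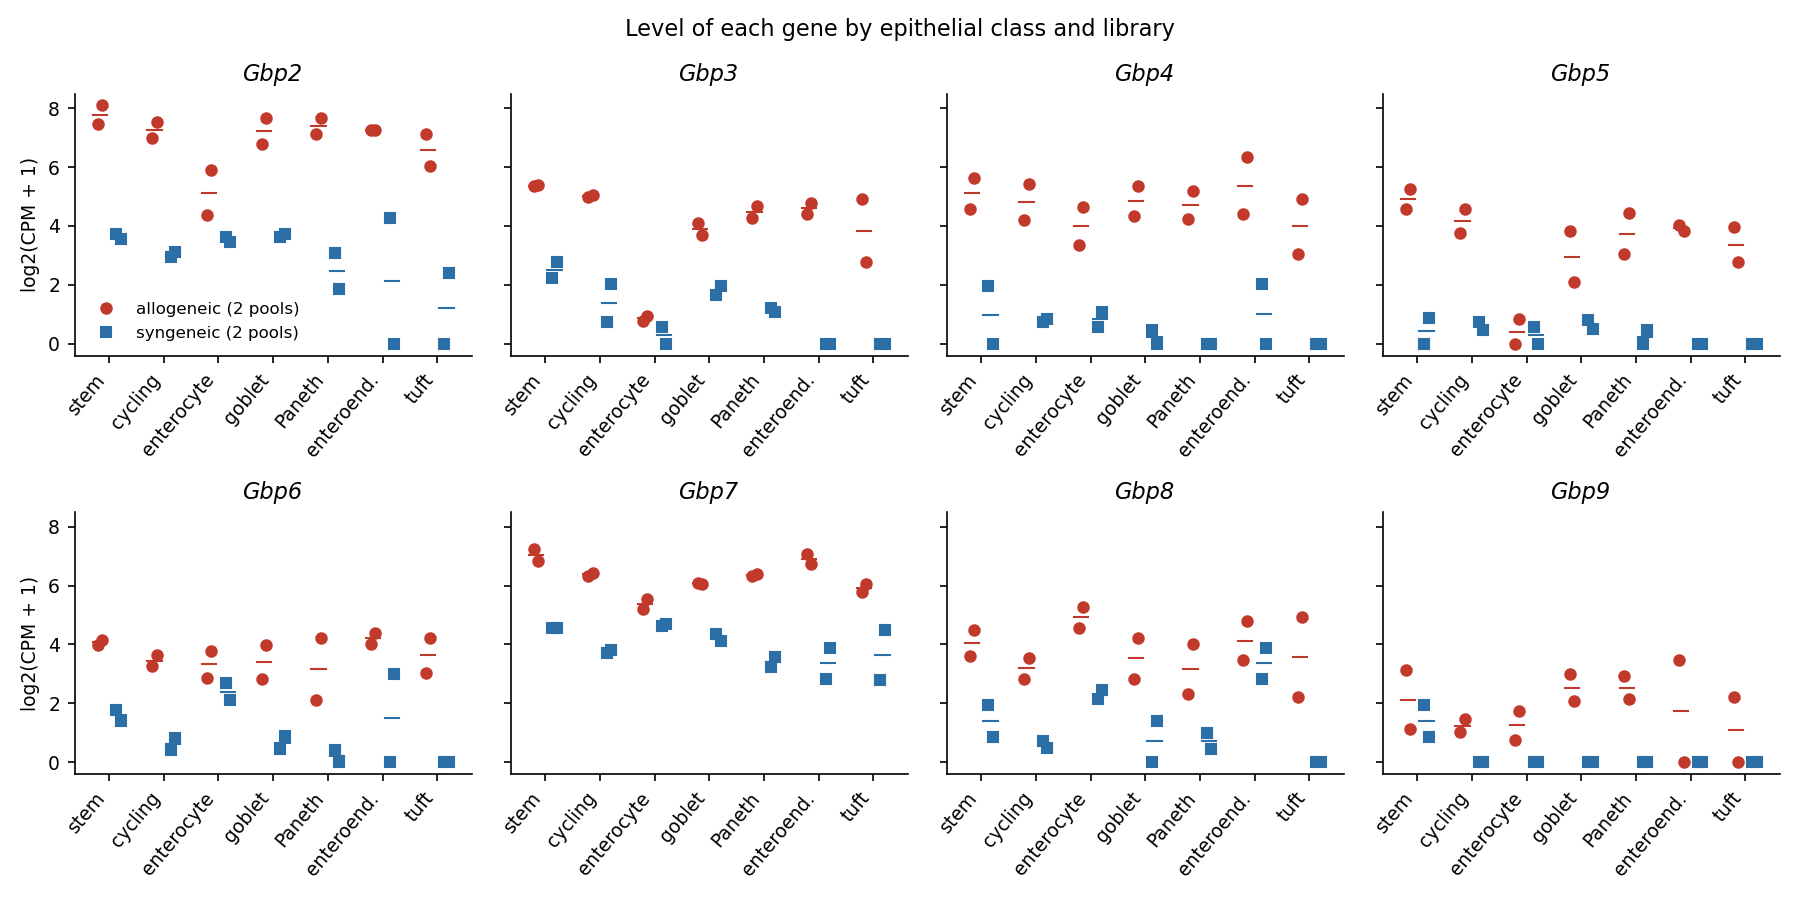
Level of each gene, as log2(CPM + 1), in the 7 epithelial classes; points are pools (2 per group) and lines are group means. In enterocyte-like cells Gbp3 and Gbp5 are near 0 in both groups, and Gbp8 has its highest allogeneic mean there.

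Whether the allogeneic effect differed among the 7 classes was tested by an interaction term, with the library as a block. Gbp7 passed (edgeR adjusted p = 0.0012), beside 2.99% of the 11297 genes tested, and no other member did, the nearest being Gbp6 at 0.116. It was lost without either syngeneic library: without syngeneic 1 or syngeneic 2 the adjusted p was 0.608 and 0.155, and without allogeneic 1 or allogeneic 2 it was 1.5e-07 and 5.1e-10, with 3 and 2 members called. In a contrast added after the data were seen, the effect in enterocyte-like cells was set against the mean effect in the other 6 classes. The effect on Gbp7 was smaller in enterocyte-like cells by 1.61 on the log2 scale (difference -1.61, SE 0.29, edgeR adjusted p = 0.00014), and that on Gbp6 differed by -3.01 (SE 0.77, edgeR adjusted p = 0.0101), beside 1.83% of genes with a smaller effect. Without syngeneic 1 neither passed, at -1.41 (edgeR adjusted p = 0.105) for Gbp7 and -2.66 (edgeR adjusted p = 0.451) for Gbp6, and without syngeneic 2 Gbp6 was at -4.14 (edgeR adjusted p = 0.0614). Gbp2 differed by -2.26 (edgeR adjusted p = 0.0782); it passed with RLE scaling (-2.33, edgeR adjusted p = 0.0413), with no low-count filter (-2.23, edgeR adjusted p = 0.000532) and without allogeneic 1 or allogeneic 2, and not without syngeneic 1 or syngeneic 2. For Gbp8 and Gbp4 the differences of -0.54 (edgeR adjusted p = 0.812) and -1.66 (edgeR adjusted p = 0.451) did not pass.

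**Figure D3:**
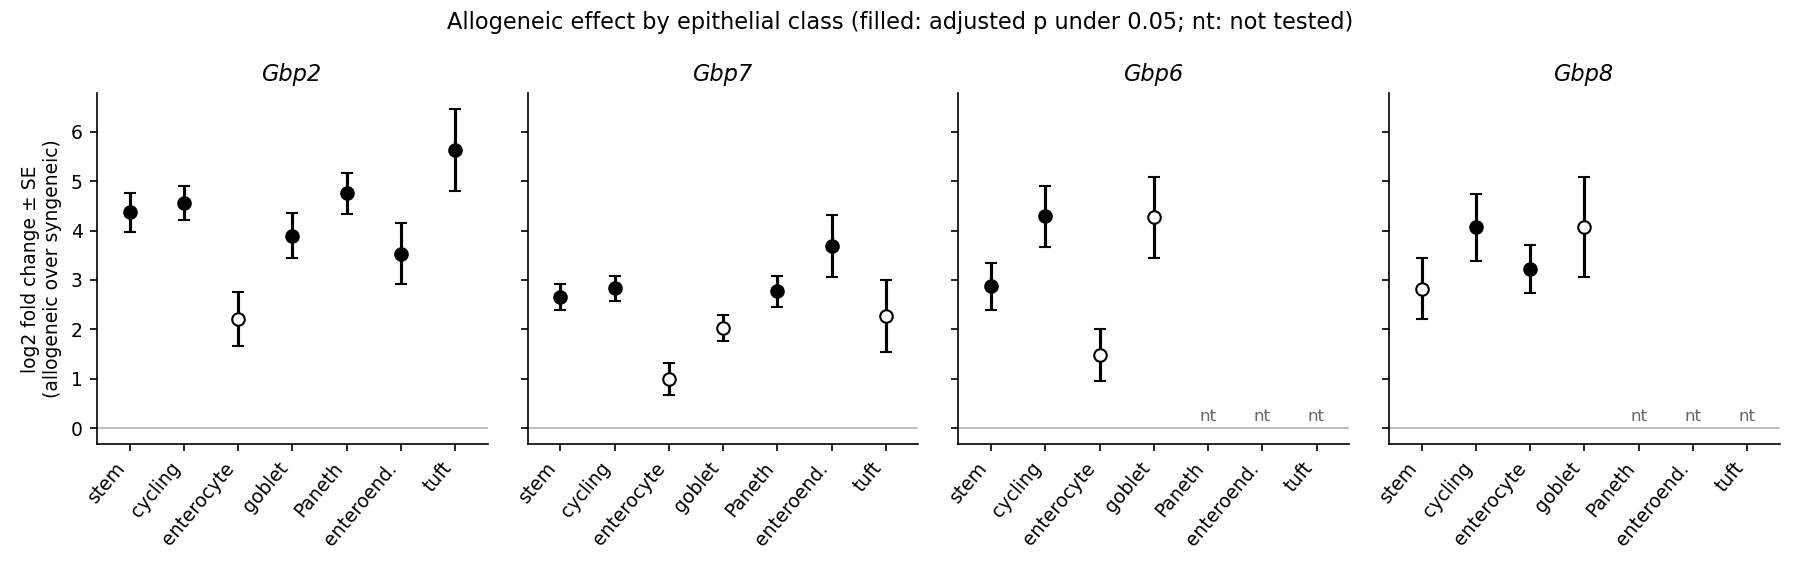
Log2 fold change, allogeneic over syngeneic, with its SE, for Gbp2, Gbp7, Gbp6 and Gbp8 in each epithelial class; filled points passed at an adjusted p under 0.05 and "nt" marks a class where the gene was not tested. Gbp2, Gbp7 and Gbp6 have their smallest values in enterocyte-like cells, at 2.22, 1.003 and 1.48, while Gbp8 is at 3.23 there.

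Within the allogeneic group the members were spread over the classes in different ways, again in a contrast chosen after the data were seen. In enterocyte-like cells, set against the mean of the other 6 classes, the level of Gbp3 was lower by 4.01 on the log2 scale (difference -4.01, SE 0.42, edgeR adjusted p = 2.32e-09), that of Gbp5 differed by -3.90 (edgeR adjusted p = 4.48e-05), that of Gbp2 by -1.34 (edgeR adjusted p = 0.00391) and that of Gbp7 by -0.39 (edgeR adjusted p = 0.0461). Gbp8 went the other way and was higher by 1.89 (SE 0.22, edgeR adjusted p = 1.69e-08). Gbp4, Gbp6 and Gbp9 did not pass, at -0.16, 0.28 and -0.08. Such differences between classes are common, with 38.2% of genes lower and 33.7% higher in allogeneic enterocyte-like cells. In allogeneic stem-like cells Gbp3 (1.496, edgeR adjusted p = 3.53e-05), Gbp5 (1.77, edgeR adjusted p = 0.00185) and Gbp7 (0.74, edgeR adjusted p = 0.00109) were higher than in the other classes, beside 18.5% of genes. In the syngeneic group 4 members were tested, and Gbp3, Gbp4, Gbp5 and Gbp9 did not pass the low-count filter. Gbp2 (1.15, edgeR adjusted p = 0.00192), Gbp6 (3.46, edgeR adjusted p = 9.2e-06), Gbp7 (1.41, edgeR adjusted p = 6.71e-09) and Gbp8 (2.59, edgeR adjusted p = 0.000885) were higher in enterocyte-like cells than in the other classes, beside 35% of genes, and none of the 4 passed as higher in stem-like cells, beside 20.7% of genes. Syngeneic Gbp3, not tested, had 3.68 and 5.79 CPM in stem-like cells, its highest mean among the 7 classes.

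The share of cells in which the genes were found depended on depth as well as on group. After each cell was thinned to 2000 UMIs, which left out 181 and 639 allogeneic and 197 and 242 syngeneic epithelial cells with fewer, 31.3% and 35.4% of allogeneic epithelial cells held a UMI of at least 1 of the 8 genes, against 5.35% and 4.91% of syngeneic cells. Unthinned, the shares were 54.0% and 54.7% against 12.0% and 10.9%. A UMI of at least 3 different members was found in 1.91% and 2.05% of allogeneic and in 0 and 0.0917% of syngeneic cells. In the allogeneic group the share was highest in stem-like cells and lowest in enterocyte-like cells. Stem-like cells had 48.5% and 66.1% in allogeneic and 7.09% and 7.24% in syngeneic libraries, and enterocyte-like cells 13.4% and 27.2% against 9.005% and 8.35%. Cycling progenitor-like cells had 38.1% and 42.5% in allogeneic and 5.15% and 2.54% in syngeneic libraries, so in the syngeneic group enterocyte-like cells lay above both. For single genes the share in epithelium was 16.1% and 18.4% for Gbp2 against 1.28% and 1.01%, and 13.3% and 10.8% for Gbp7 against 3.09% and 3.21%. An allogeneic cell held 0.512 and 0.569 UMIs of the 8 genes on average, against 0.0648 and 0.0592 in syngeneic cells, and the highest single cell held 16 and 10 UMIs against 4 in each syngeneic library.

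**Figure D4:**
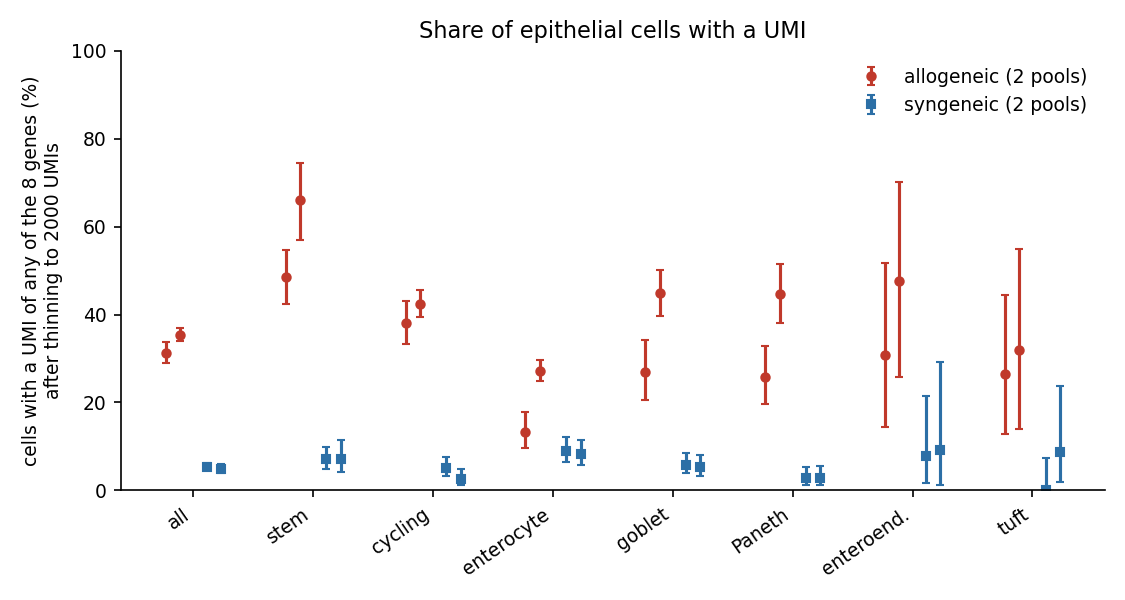
Percent of cells with a UMI of any of the 8 genes after thinning to 2000 UMIs, for all epithelial cells and each class; points are pools, and bars are exact 95% Clopper-Pearson intervals, which cover counting error only. Stem-like cells have the highest allogeneic shares, 48.5% and 66.1%, and enterocyte-like cells the lowest, 13.4% and 27.2%.

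Pairs of members were also counted in single cells. Among allogeneic epithelial cells, Gbp3 was found in 9.2% and 6.3% of cells with a Gbp2 UMI and in 3.2% and 2.1% of cells without one. Gbp8 was found in 2.8% and 3.3% of cells with a Gbp7 UMI and in 1.6% and 4.6% of cells without one, so the allogeneic pools went opposite ways. These shares describe 2 chosen pairs, with no test of the difference between them.

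The make-up of the family differed between the groups. Gbp2 gave 43.5% and 45.8% of the 8 genes' UMIs in allogeneic epithelium and 30.6% and 26.4% in syngeneic epithelium. Gbp7 gave 30.1% and 21.5% in allogeneic epithelium, against 49.6% and 55.0% in syngeneic epithelium, where it was the leading member. In enterocyte-like cells Gbp8 gave 23.7% and 20.7% in allogeneic and 7.6% and 10.1% in syngeneic libraries. A UMI counts a transcript once whatever its length, and these shares are of counted transcripts.

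T cells carried the family at a level like that of allogeneic epithelium, but with another make-up. The donor strain differed between the groups, and T cells were not assigned to donor or recipient. Donor strain and group therefore cannot be told apart in T cells, here and in the tests below. Their 8 genes gave 118 and 55 UMIs in allogeneic libraries, or 265.6 and 183.7 CPM, and 8 and 11 UMIs in syngeneic libraries, or 462.7 and 258.8 CPM, and the groups overlapped. In allogeneic T cells Gbp7 led, followed by Gbp4. Gbp7 had 90.0 and 76.8 CPM in allogeneic and 57.8 and 70.6 CPM in syngeneic T cells, and Gbp4 51.8 and 40.1 CPM against 173.5 and 70.6 CPM. In syngeneic T cells no order can be read, since Gbp4 rests on 3 UMIs in each library and Gbp7 on 1 and 3. Gbp2 was low, with 9 and 3 UMIs in allogeneic and 1 and 0 UMIs in syngeneic T cells, and it made 7.6% and 5.5% of the family in allogeneic T cells. Free RNA from epithelium was gauged by the level of pan-epithelial markers in T cells, 0.821% and 0.585% of the epithelial level in allogeneic libraries. At that level 1.03 and 0.538 UMIs of the 8 genes would come from free RNA, against the 118 and 55 found. The T cell gate itself kept only cells with a low level of these markers. The gauge was thus held low in advance and cannot tell how much free RNA the T cells held.

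Because syngeneic 1 held 8 T cells, under the minimum of 10, the planned test was not run and a fit with no minimum was added. Gbp4 (log2 fold change -1.23, edgeR adjusted p = 0.859) and Gbp7 (0.28, edgeR adjusted p = 0.995) were the members with enough counts, and neither passed, beside 0.786% of 2544 genes in either direction. The allogeneic effect on Gbp4 was smaller in T cells than in epithelium, with a difference of -6.12 on the log2 scale (SE 1.24, edgeR adjusted p = 0.00198), beside 0.0758% of 11878 genes. The difference was -6.26 without syngeneic 1 (edgeR adjusted p = 0.053), -7.07 without allogeneic 1 (0.0523) and -5.56 without allogeneic 2 (0.846), where the call was lost, and -6.05 without syngeneic 2 (0.0197). The other members tested did not pass, with differences of -4.003 (edgeR adjusted p = 0.637) for Gbp8, -3.55 for Gbp2, -1.82 for Gbp3, -5.91 for Gbp5, -1.39 for Gbp7 and -4.67 for Gbp9, and of 4.02 for Gbp6, whose SE was 21.6.

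**Figure D5:**
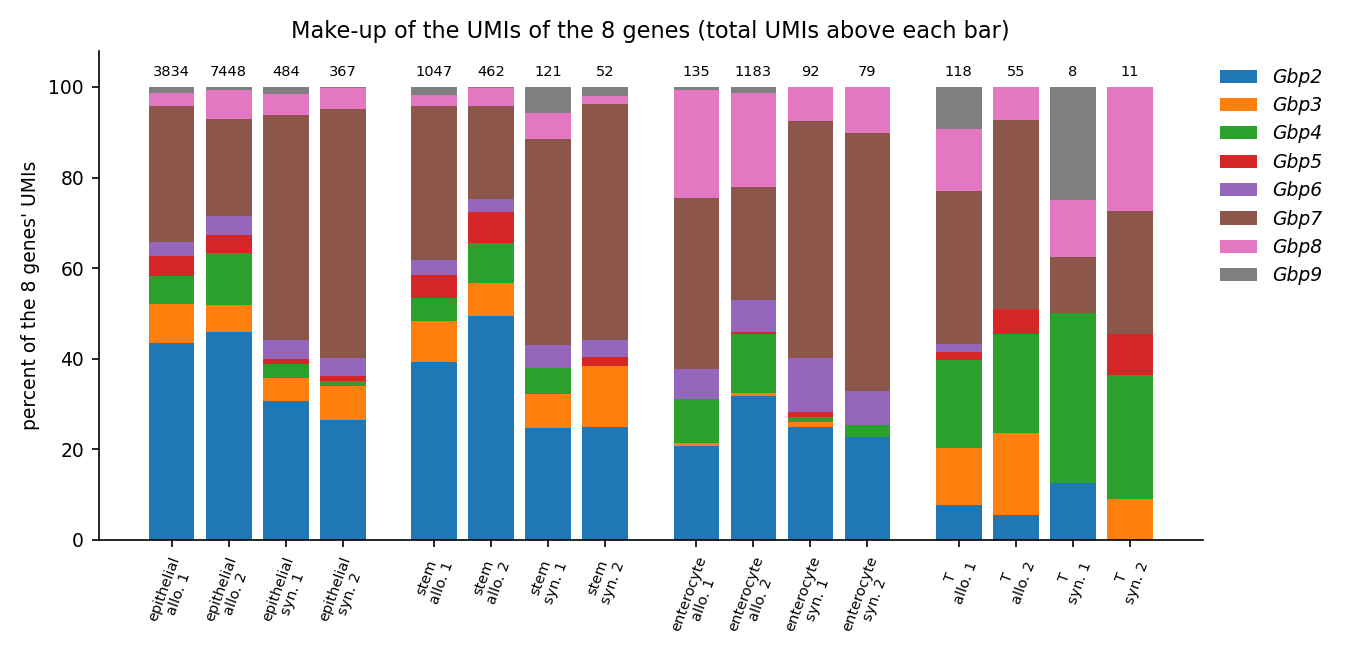
Share of each gene in the UMIs of the 8 genes, in percent, for all epithelial, stem-like, enterocyte-like and T cells of each library, with the number of UMIs above each bar. Gbp2 is the largest part in allogeneic epithelium, 43.5% and 45.8%, Gbp7 in syngeneic epithelium and in allogeneic T cells, and the syngeneic T cell bars rest on 8 and 11 UMIs.

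The ligand of the pathway was counted in the T cells. Ifng, which encodes interferon gamma, gave 101 and 192 UMIs in allogeneic T cells (227 and 641 CPM), against 2 and 4 UMIs in syngeneic T cells (116 and 94.1 CPM), and 0 and 1 UMIs in allogeneic and 0 in each syngeneic epithelial sum. The number of T cells and their Ifng differed between the groups together with the epithelial levels, and their part in those levels was not tested.

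Of the receptor and signalling genes of interferon gamma, 0 of 17 tested passed in epithelium as a whole by edgeR, beside 0.141% of all genes as higher. With so few calls over all genes, this count does not show that the list was unchanged. Its median log2 fold change was 0.51 in epithelium, 0.85 in Paneth-like and 0.07 in enterocyte-like cells. Over all genes tested the medians were 0.03, 0.01 and 0.005 in the same order. In cycling progenitor-like cells Irf1, which encodes a transcription factor, rose (log2 fold change 1.26, edgeR adjusted p = 0.0377), and Socs3, a feedback inhibitor, fell (-1.84, edgeR adjusted p = 0.00164). In Paneth-like cells Irf1 rose by 1.65, the inhibitor Socs1 by 2.38 and Batf2 by 3.32 on the log2 scale. In enterocyte-like cells no gene of the list passed by edgeR.

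The immunity-related GTPases, a second family of interferon-induced GTPases that acts on the same vacuoles, rose in part as well. In epithelium 3 of 10 tested rose, Gm4951 by 6.82 (edgeR adjusted p = 0.0244), Iigp1 by 3.39 (edgeR adjusted p = 0.0318) and Tgtp1 by 3.24 (edgeR adjusted p = 0.0318). In the classes 5 of 8 rose in stem-like, 7 of 9 in cycling progenitor-like, 7 of 8 in Paneth-like and 3 of 9 in goblet-like cells. In enterocyte-like cells 2 of 4 rose, Iigp1 and Irgm1, with 1 of 3 in enteroendocrine-like and 2 of 3 in tuft-like cells, and none fell. Of all genes tested, 0.141% rose in epithelium and 0.511%, 1.94%, 1.05%, 0.148%, 1.48%, 0.518% and 0.28% in these classes, in the same order. Which GTPase genes passed the low-count filter on allogeneic counts alone was not examined, so these counts are descriptions. Of the ubiquitin-like conjugation genes that guide these GTPases to membranes, Gabarapl1 in cycling progenitor-like cells was the one call (1.54, edgeR adjusted p = 0.0441). There 13 genes of that list were tested. None of the 9 genes of prenyl transfer passed by edgeR. Of the 13 inflammasome and pyroptosis genes tested in cycling progenitor-like cells, Gsdmd, which encodes the pore-forming gasdermin D, passed, beside 1.94% of all genes. It had 44.1 and 58.7 CPM in allogeneic and 10.96 and 12.7 CPM in syngeneic libraries (2.24, edgeR adjusted p = 0.000568).

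Over the 28 sums of 7 classes in 4 libraries, the genes outside the family whose log2(CPM + 1) followed the summed level most closely were Gm4951 (Pearson r = 0.943), the chemokine gene Cxcl9 (0.914), Irgm1 (0.911), Ly6a (0.909) and Cxcl10 (0.897). These points share libraries and the difference between the groups, and over the 14 allogeneic points alone r was 0.898, 0.735, 0.658, 0.502 and 0.628 in the same order. Over those 14 points the members themselves ranged from 0.96 for Gbp2 to -0.11 for Gbp8.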

How the data were processed

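Crypt cells of 2 allogeneic and 2 syngeneic pools were measured with 10x Genomics 3′ libraries. The values are raw UMI counts, per gene and cell, in the matrices the authors deposited. Per the submitters' processing notes Cell Ranger 2.1.1 and mm10 were used; the matrix headers give version 3.1.0. The rule by which barcodes were kept is not given in the sources used here. A kept cell had 500 or more genes, 1000 or more UMIs and no more than 20% mitochondrial counts, and Scrublet in scanpy 1.11.5 removed 89 doublets (0.724%). Each cell was put in the class with the highest mean z-score of its markers (at least 0.5); a T cell needed 2 UMIs of T cell genes and a low level of pan-epithelial markers. Counts were summed per class and library (at least 10 cells in each), passed through filterByExpr and TMM scaling, and tested in edgeR 4.0.16 (R 4.3.3, limma 3.58.1; robust quasi-likelihood fit, Benjamini-Hochberg threshold 0.05), allogeneic against syngeneic; scripts were tested on simulated data. CPM is per 1000000 UMIs of the summed cells, and SE is that of the log2 fold change.

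All 8 members are named in each class with counts; of other lists at most 4 genes are named, called genes first by p and then by level; genes outside the family were ranked by Pearson r. 1 gene of the signalling list is not reported here. The members and lists were chosen with earlier results of these data known. Alternatives were RLE scaling, DESeq2 1.42.0, no low-count filter, a mitochondrial limit of 10%, Leiden cluster names, leaving out cells with T or myeloid marker UMIs, an equal mix of classes and leaving out each library. Replicates are separate pools, per the labels' protocols, and replicate numbers follow the order of the records. The largest total was 26677842 and the smallest 14961466 UMIs per library; 95% intervals (exact Clopper-Pearson for shares, exact Poisson for counts) cover only the error of counting, and for a count of 0 the floor is 3 counts.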

Additional observations from a re-analysis of the deposited data

Results flagged for a closer look

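The allogeneic effect on Gbp7 differed among the 7 epithelial classes, by edgeR's interaction test with Benjamini-Hochberg adjustment (adjusted p = 0.0012), although not without syngeneic 1 (0.608) or syngeneic 2 (0.155).

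Set against the mean of the other 6 classes, the effect in enterocyte-like cells differed by -1.61 for Gbp7 and by -3.01 for Gbp6 on the log2 scale (edgeR adjusted p of 0.00014 and 0.0101). Both were smaller there in each fit that left out 1 library, from -1.41 to -2.06 for Gbp7 and from -2.66 to -4.14 for Gbp6.

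The effect on Gbp4 in T cells differed from that in epithelium by -6.12 on the log2 scale (edgeR adjusted p = 0.00198), with 3 Gbp4 UMIs in the T cells of each syngeneic library. Donor strain and group cannot be told apart in T cells. With 1 library left out the difference was -5.56 to -7.07, and it did not pass without syngeneic 1 (0.053), allogeneic 1 (0.0523) or allogeneic 2 (0.846).

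Gbp10, a chromosome 5 neighbour of Gbp6 (105215699 to 105239533, GRCm38) outside the 8 genes, gave 30 UMIs in allogeneic epithelium, 11 and 19 per library, against 1 in syngeneic epithelium. The ratio of 23.8 has a counting interval of 3.95 to 969, and its log2 fold change of 4.37 did not pass (edgeR adjusted p = 0.18).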

How the results depend on the processing

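All 411 alternative fits of single members in the epithelial classes kept the allogeneic group higher, with log2 fold changes of 0.55 to 9.22; 331 kept their side of the threshold, 18 lost a call, 62 gained one and 0 changed sign. These fits reuse the same 4 libraries. For genes that passed the low-count filter on their allogeneic counts alone the direction was set in advance. The 411 fits are therefore a description and support nothing. Counts of members called moved more than these directions. In all epithelial cells 4 were called, against 8 with DESeq2, 7 with no low-count filter, 7 with an equal mix of classes, 0 at the mitochondrial limit of 10%, and 7 to 8 with 1 library left out. In enterocyte-like cells 2 were called, against 4 with no filter, 0 at the limit of 10% and 2 to 5 with 1 library left out. In goblet-like cells 1 was called, against 0 with RLE scaling, 5 with DESeq2, 8 with no filter, 3 at the limit of 10%, 6 with Leiden names, 0 without cells that hold a T or myeloid marker UMI and 2 to 6 with 1 library left out. In Paneth-like cells 5 were called, against 8 with no filter and 4 to 7 with 1 library left out. In enteroendocrine-like cells 2 were called, against 1 at the limit of 10%, 0 without the cells with T or myeloid UMIs and 1 to 2 with 1 library left out, and in tuft-like cells 1, against 0 at the limit of 10%, 0 without those cells and 0 to 1 with 1 library left out. Stem-like cells gave 5 to 7 and cycling progenitor-like cells 7 to 7 with 1 library left out. The interaction among classes called 1 member, against 2 with no filter and 0 to 3 with 1 library left out. Calls over all genes moved too: the 19 in epithelium were 0 to 498 under other settings and 99 to 5770 with 1 library left out. The same ranges were 60 to 474 and 48 to 1355 against 59 in stem-like, 274 to 735 and 170 to 3383 against 345 in cycling progenitor-like, 183 to 565 and 115 to 2738 against 210 in enterocyte-like, 4 to 377 and 48 to 2808 against 15 in goblet-like, 69 to 232 and 46 to 1023 against 99 in Paneth-like, 10 to 50 and 18 to 115 against 20 in enteroendocrine-like and 1 to 86 and 17 to 487 against 14 in tuft-like cells. The causes were not tested. The log2 ratio of summed levels stayed between 3.32 and 3.55 in every alternative. The difference in the share of cells with a UMI was 28.3 percentage points, 17.5 when cells were thinned to 1000 UMIs, 30.1 at the limit of 10% and 26.2 to 30.3 with 1 library left out.

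No paired analysis was possible because the replicate numbers follow the order of the records and pair no libraries. The planned tests in T cells, and the alternatives to the comparison of T cells with epithelium under RLE scaling or no filter, were not run, since syngeneic 1 held 8 T cells. With 2 pools per group, 1 pool decides a fit when the other is left out, and the lone sample is then assumed to vary like the other group. Low counts limit Gbp4, Gbp5, Gbp6, Gbp8 and Gbp9 in the syngeneic group.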

Other observations

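Gbp2b, the chromosome 3 gene between Gbp3 and Gbp2 (142594847 to 142619179, GRCm38), gave no UMI in the epithelial cells of any library, although both its neighbours were called there. It gave 11 and 3 UMIs in the 13 and 6 myeloid-like cells of the allogeneic libraries and 2 and 1 UMIs in their T cells, against 0 in syngeneic T cells. Myeloid-like and T cells can come from the donor, whose strain differed between the groups, and were not assigned to donor or recipient. Cell type and donor strain therefore cannot be told apart for Gbp2b. The 8 other genes stood at 586.9 and 1044 CPM in those myeloid-like cells, a class found in the allogeneic libraries only. The Gbp2b promoter carries the same interferon-stimulated response element core as its neighbours, 137 bases from the RefSeq start (GRCm38.p6, plus strand, capitals marking the match).
Gbp2b, chr3:142594685-142594744: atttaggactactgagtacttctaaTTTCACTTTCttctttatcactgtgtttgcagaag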
